A study of Mus musculus with 11 samples.

Results

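The genes described here are 45 cyclins, cyclin-dependent kinases (CDKs) and mitotic genes of mouse embryonic stem cells (ESCs). They were taken by symbol from the 54838 Ensembl genes counted in each library, and the set comprised 13 genes that act at entry into and passage through S phase (G1/S) and 32 that act in G2 phase or mitosis (G2/M). All 45 were among the 16073 genes that exceeded 1 CPM (reads of a gene for each 1000000 reads counted in its library) in at least 4 libraries, the level required for testing. The rule took members by name, from a set proposed with earlier results of these data known.

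RNA was sequenced from the E14 line of mouse ESCs, grown on gelatin in serum replacement medium with the cytokine LIF. The 11 libraries came from cells given a control siRNA (3 libraries), CMTR1 siRNA 1 (4 libraries) or CMTR1 siRNA 2 (4 libraries) for 36 h. CMTR1 is the methyltransferase that adds 2′-O-methylation to the first transcribed nucleotide of capped RNA, and the study asked which transcripts change when it is depleted. The siRNAs act transiently on a single line. The study's methods speak of 3 biological replicates for PCR or sequencing, while each CMTR1 siRNA has 4 libraries. The labels do not say which libraries of a group were separate cultures. The p-values below therefore measure the spread between these libraries, part of which may be technical.

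Passage through the cell cycle is driven by CDKs bound to cyclins that are made and destroyed in turn. D-type cyclins with CDK4 or CDK6, and E-type cyclins with CDK2, phosphorylate the retinoblastoma proteins and release E2F transcription factors, which switch on genes for S phase. Cyclin B with CDK1 starts mitosis, in which Polo-like and Aurora kinases, the kinetochore and the spindle checkpoint control chromosome segregation until CDC20 and the anaphase-promoting complex mark cyclin B and securin for destruction. Mouse ESCs are known for a short G1 phase, for high cyclin E and for weak control of the retinoblastoma proteins over the cycle.

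The total of counted reads ran from 6738478 to 8382318 per library, and the non-coding RNA Gm26917 took 4.86% to 6.34% of them. Cmtr1, the targeted gene, was measured at 17.9 to 21.7 CPM in the control libraries, at 16.2 to 21.3 CPM in those labelled siRNA 1, and at 15.6 to 19.5 CPM in those labelled siRNA 2. The 3 groups overlapped, and neither log2 fold change of Cmtr1 passed the test (-0.09 ± 0.11 (SE) for siRNA 1, adjusted p = 0.743, and -0.25 ± 0.11 for siRNA 2, adjusted p = 0.144, edgeR quasi-likelihood test). Other genes overlap 36.3% of the exon length of Cmtr1 on its own strand and 47.2% on the opposite strand, and how reads shared with them were counted is uncertain. The count of Cmtr1 did not separate the groups, which are named by their labels, and every direction below is between libraries as labelled. Markers of ESCs were present in every library (6 of 6 above the threshold). Their summed level was 1306 to 1417 CPM in the control, 1094 to 1253 CPM in siRNA 1 and 1177 to 1251 CPM in siRNA 2. Both siRNA groups thus lay below the control in this sum. Nanog, Zfp42 and Esrrb passed the test as lower with each siRNA, Pou5f1 and Dppa5a with siRNA 1 alone, and Sox2 with neither. A sum over 4 fibroblast markers, Col1a1, Col1a2, Dcn and Thy1, was 22.0 to 26.2 CPM in the control, 23.7 to 28.0 CPM in siRNA 1 and 33.2 to 38.6 CPM in siRNA 2. In this sum siRNA 2 lay above both other groups. Against control, Col1a1 and Dcn were higher with siRNA 2 (adjusted p = 6.4e-05 and 0.0021, edgeR). Col1a2 and Thy1 overlapped the control and did not pass (adjusted p = 0.124 and 0.365). In the order control, siRNA 1 and siRNA 2, a sum over 3 neural markers was 40.6 to 43.9, 46.6 to 57.6 and 34.7 to 47.4 CPM. Trophoblast markers summed to 3.82 to 4.82, 2.82 to 5.61 and 2.51 to 3.13 CPM, with Elf5 at 0 or 1 read in every library. Endoderm and mesoderm sums overlapped between the groups. The part of these shifts in the results was not tested, and in bulk RNA fewer cells of a type and less RNA per cell cannot be told apart.

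The promoters of the members are shown first because G1/S and G2/M genes are known to be read from different promoter elements. RefSeq start sites (GRCm38.p6) with 300 bases, 250 before and 50 after the start, were at hand for 34 of the 45 members, in 36 windows. Those not matched were Ccna2, Ccnd1, Ccnd2, Ccne2, Cdc25c, Rb1, Foxm1, Aurkb, Incenp, Kif20a and Tpx2. Both strands were searched for E2F words (TTTCCCGC, TTTGGCGC, TTTCGCGC or TTTGCCGC), for the cell cycle genes homology region (CHR, TTTGAA or TTCGAA) and for the CCAAT box (CCAAT). No word holds another. The stretches below are up to 120 bases that end at the RefSeq start, cut back where a GENCODE exon begins, with every such word in capitals on either strand. Mybl2 is shown because its level was lower with each siRNA, Cdc25a because it holds an E2F word and Ccnb2 because it differed between the siRNAs. Cdc20, Top2a and Kif11 are shown because each holds a CHR within the stretch. They lie at chr2:163054515-163054634 (plus strand), chr9:109875459-109875578 (plus), chr9:70421555-70421674 (minus), chr4:118437353-118437463 (minus), chr11:99024190-99024309 (minus) and chr19:37376262-37376381 (plus), in that order, and are written 5′ to 3′ along the gene.
Mybl2: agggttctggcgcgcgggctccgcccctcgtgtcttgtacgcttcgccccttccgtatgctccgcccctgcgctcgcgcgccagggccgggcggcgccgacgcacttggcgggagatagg
Cdc25a: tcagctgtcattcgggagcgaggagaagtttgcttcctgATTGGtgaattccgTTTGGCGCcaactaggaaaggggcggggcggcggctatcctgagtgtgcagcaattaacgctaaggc
Ccnb2: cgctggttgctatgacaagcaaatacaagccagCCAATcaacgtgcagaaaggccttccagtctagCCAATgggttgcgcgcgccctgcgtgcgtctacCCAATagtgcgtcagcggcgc
Cdc20: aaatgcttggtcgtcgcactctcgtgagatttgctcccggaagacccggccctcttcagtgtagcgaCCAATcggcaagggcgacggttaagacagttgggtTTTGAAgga
Top2a: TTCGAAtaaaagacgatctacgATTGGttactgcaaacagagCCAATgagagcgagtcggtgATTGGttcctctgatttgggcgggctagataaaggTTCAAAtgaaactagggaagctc
Kif11: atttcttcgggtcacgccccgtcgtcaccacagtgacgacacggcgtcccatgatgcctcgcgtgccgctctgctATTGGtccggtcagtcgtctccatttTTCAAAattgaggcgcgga

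A CHR was present in 19 of the 26 G2/M windows (73.1%) and in 0 of the 10 G1/S windows, beside 19.2% of all 32851 windows. Within 50 bases of the start it was present in 17 of the 26 G2/M windows (65.4%), beside 5.31% of all windows. The CCAAT box was found in 20 G2/M windows (76.9%) and 4 G1/S windows (40.0%), beside 37.4% of all. E2F words were found in 3 G1/S windows (30.0%), those of Rbl1, Cdc25a and Cdk2, and in 1 G2/M window (3.85%), that of Cdk1, beside 2.26% of all. The CHR of Cdc20 began 18 bases before the start, with a CCAAT box at 53 bases before it, and Ccnb2 carried 3 CCAAT boxes in the stretch shown. Ccnb2 also held a CHR 167 bases before the start and another at base 5 after it, both outside that stretch. The Mybl2 stretch held none of these exact words, and near variants of them were not searched. A match describes letters only, and no match says nothing about the factors that bind these elements.

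In the control libraries the members spanned 1.44 CPM per kilobase of exon (Ccnd2) to 145 CPM per kilobase (Cdc20). Among G1/S genes, the highest levels per length were those of Cdk4 (121 CPM per kilobase), a partner of the D-type cyclins, and Ccne1 (79.6 CPM per kilobase), cyclin E1. The E-type pair was uneven, with Ccne2 at 6.67 CPM per kilobase. Of the D-type cyclins, Ccnd1 was at 23.3, Ccnd3 at 16.6 and Ccnd2 at 1.44 CPM per kilobase. The inhibitor Cdkn1b, which encodes p27, was low at 4.13 CPM per kilobase. Among G2/M genes, Cdc20 was followed by Top2a (108 CPM per kilobase), the topoisomerase that untangles chromosomes, by Mybl2 (96.5 CPM per kilobase), which encodes B-MYB, and by Plk1 (74.5 CPM per kilobase), the Polo-like kinase. The lowest was Cdc25c, at 4.92 CPM per kilobase. Each member received 92 to 8386 reads per library with a median of 1034, and all 45 together took 0.764% to 0.810% of the counted reads.

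**Figure D1:**
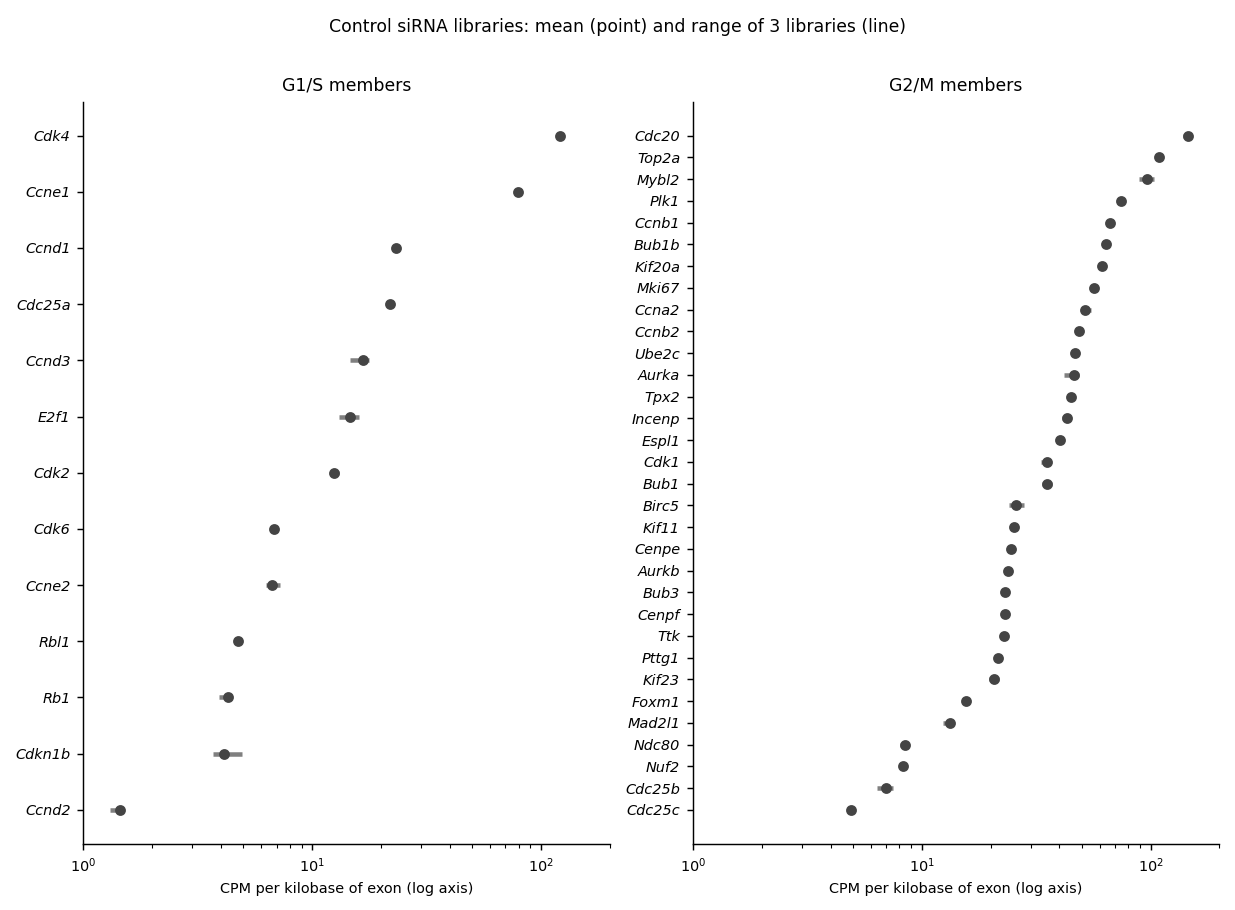
Level of each member in the control siRNA libraries, in CPM per kilobase of exon on a log axis, for G1/S genes (left) and G2/M genes (right), with the point at the mean and the line over the range of 3 libraries. Levels run from 1.44 for Ccnd2 to 145 for Cdc20, and the range over the libraries is narrow beside the differences between genes.

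Few of the members changed with either siRNA. With siRNA 1, Mybl2 fell and Rb1, which encodes the retinoblastoma protein, rose, so that 2 of 45 members (4.44%) passed a false discovery rate (FDR) of 0.05, beside 4.67% of all genes tested (higher 2.71%, lower 1.97%). With siRNA 2, Mybl2 and E2f1 fell and Ccna2 rose, which made 3 of 45 (6.67%), beside 9.72% of all genes (higher 6.17%, lower 3.55%). For the mean of both siRNAs against control, Mybl2 and E2f1 fell and Rb1 rose, again 3 of 45 (6.67%), beside 6.91% of all genes (higher 4.19%, lower 2.72%). The share of members called was near the background in each of these 3 comparisons. With TMM scaling the split of all called genes turned, from 435 higher and 316 lower to 346 and 400 with siRNA 1, and from 991 and 571 to 728 and 734 with siRNA 2, while of the member calls only that of Ccna2 was lost. Both siRNAs were compared with the same 3 control libraries, so their values are set side by side and are not independent.

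The sizes of change were small. Taken without sign, the log2 fold changes of the 45 members had a median of 0.05 (siRNA 1) and 0.06 (siRNA 2), beside 0.11 and 0.13 over all genes tested. The members are also measured more evenly than most genes, with a median within-group SD of log2 CPM of 0.07 beside 0.14 over all genes tested, and the part of this smaller spread in their smaller fold changes was not tested. For 39 of 45 members with siRNA 1, and for 39 with siRNA 2, the 95% interval lay inside a 1.2-fold change in either direction, which was so for 5927 and 5505 of the 16073 genes. For G2/M genes this held for 30 of 32 with each siRNA, and for G1/S genes for 9 of 13 with each.

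Over the G2/M genes the log2 fold changes were centred on 0.02 (median) for each siRNA, beside 0.02 and 0.03 over all genes, and with TMM scaling, which centres all genes near 0, on -0.0029 and -0.0090. Over the G1/S genes the median was -0.09 for siRNA 1, where 10 of 13 lay below 0, and 0.05 for siRNA 2, where 6 of 13 did, and with TMM scaling it was -0.11 and 0.02. Over the left-out libraries the siRNA 1 median ran from -0.0961 to -0.0434, the latter without siRNA 1 replicate 1. The siRNA 2 median ran from 0.0245, without siRNA 2 replicate 2, to 0.0642. These medians carry no test, and a single G1/S gene passed the test with each siRNA, Rb1 with siRNA 1 and E2f1 with siRNA 2. The G2/M genes that passed were Mybl2 with each siRNA and Ccna2 with siRNA 2. The split of calls depends on counting these genes as G2/M, although cyclin A2 also acts in S phase. With both counted as G1/S, no G2/M member was called against control.

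**Figure D2:**
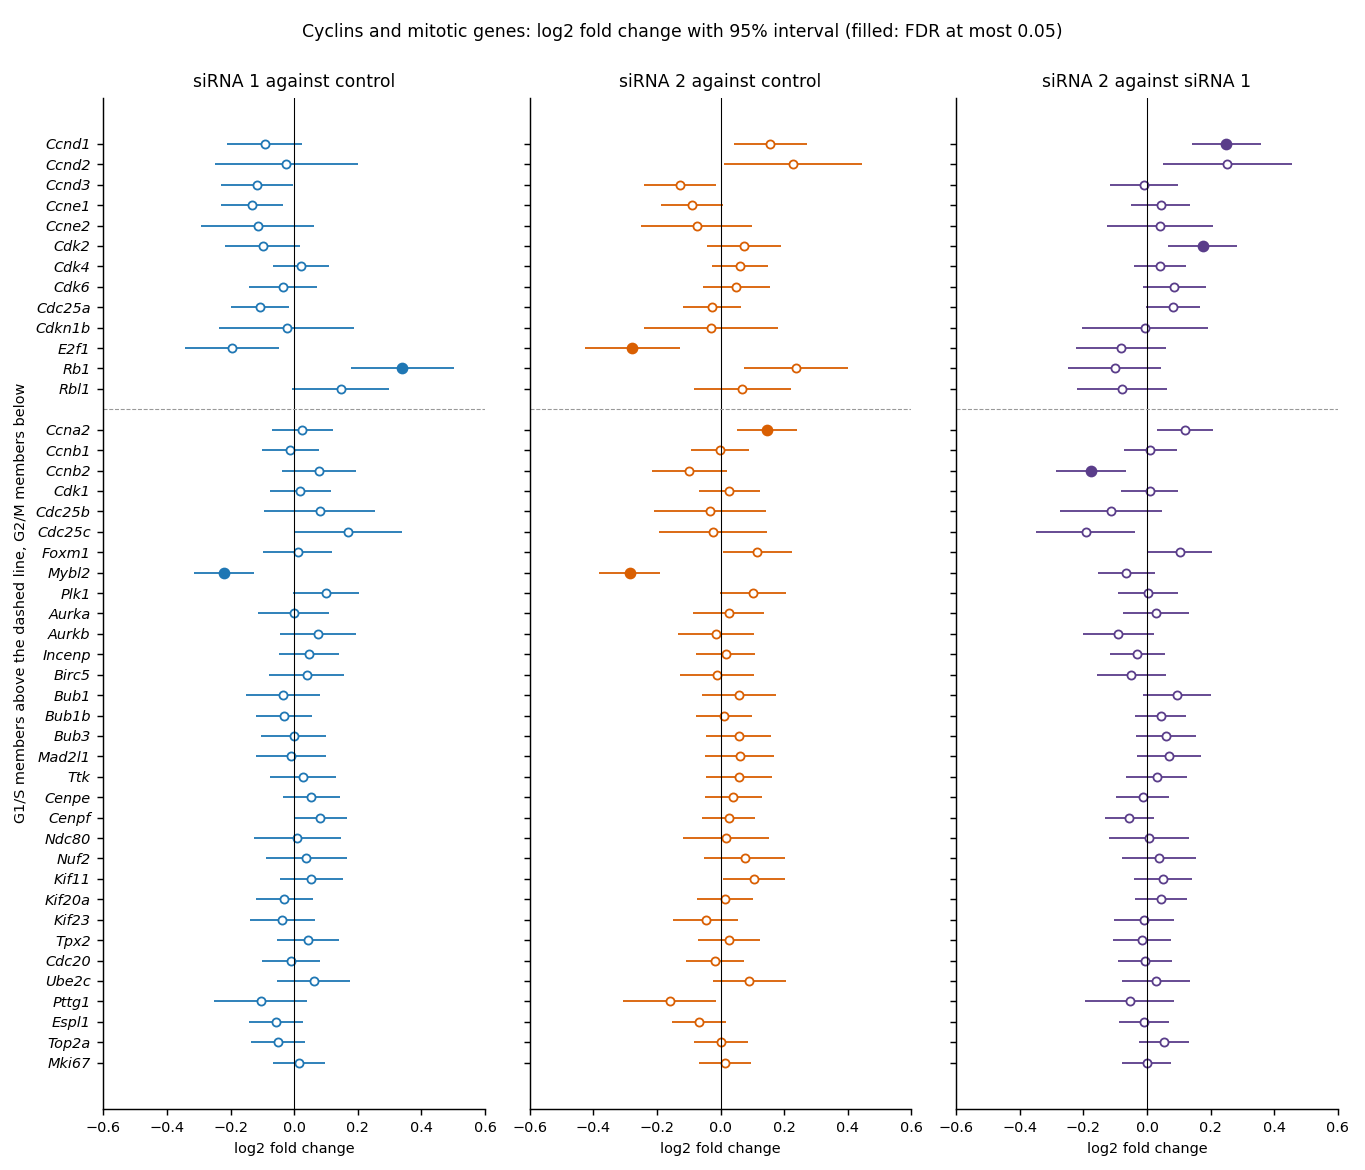
Fitted log2 fold change of each member (points) with its 95% interval (lines) for siRNA 1 against control, siRNA 2 against control and siRNA 2 against siRNA 1, G1/S genes above the dashed line and G2/M genes below it. Filled points passed an FDR of 0.05; they are 2, 3 and 3 of the 45 genes, and most G2/M points lie close to 0.

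Mybl2 (ENSMUSG00000017861, chr2:163054687-163084688, plus strand) encodes B-MYB, a transcription factor that acts with the MuvB complex and FOXM1 to switch on G2/M genes. In the control libraries it was at 412, 449 and 481 CPM. In the libraries labelled siRNA 1 it was at 376, 368, 395 and 396 CPM, and in those labelled siRNA 2 at 342, 362, 394 and 368 CPM. All 8 siRNA libraries lay below all 3 control libraries. The log2 fold change was -0.22 ± 0.05 (SE, adjusted p = 0.0034, edgeR) with siRNA 1 and -0.29 ± 0.05 (adjusted p = 6.57e-05) with siRNA 2, and these did not differ detectably from each other (difference -0.07, 95% interval -0.15 to 0.02, adjusted p = 0.442). Without control replicate 3, the highest of the controls, the siRNA 1 call was lost (log2 fold change -0.17, adjusted p = 0.0888), while the siRNA 2 call was kept whichever library was left out. Foxm1, its partner, was at 89.9 CPM in the control and did not pass the test (log2 fold change 0.01 ± 0.06 and 0.12 ± 0.06, adjusted p = 0.20 for siRNA 2).

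E2f1 (ENSMUSG00000027490, chr2:154559407-154569892, minus strand) encodes an activator of S phase genes. It was at 41.5, 50.8 and 46.7 CPM in the control. It was at 42.4, 42.6, 36.6 and 40.4 CPM with siRNA 1 and at 39.1, 40.4, 34.6 and 38.6 CPM with siRNA 2. The siRNA 2 libraries lay below all controls, while siRNA 1 overlapped the lowest control. E2f1 fell with siRNA 2 (log2 fold change -0.28 ± 0.08, adjusted p = 0.0135, edgeR) and for the mean of both siRNAs (-0.24 ± 0.07, adjusted p = 0.0215), while siRNA 1 alone gave -0.20 ± 0.08 (adjusted p = 0.141). The siRNA 2 call was lost without control replicate 2 (log2 fold change -0.20, adjusted p = 0.164). It was also lost without control replicate 3 (adjusted p = 0.0552), where the estimate of -0.27 was close to that with all libraries. The call for the mean of both was lost without the same libraries (adjusted p = 0.295 and 0.0979).

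Rb1 (ENSMUSG00000022105, chr14:73183673-73325822, minus strand) encodes the protein that holds E2F factors in check. It was at 26.8, 27.0 and 23.7 CPM in the control. It was at 32.5, 32.4, 35.0 and 31.0 CPM with siRNA 1 and at 31.4, 27.9, 31.4 and 31.5 CPM with siRNA 2. All 8 siRNA libraries lay above all controls. The log2 fold change was 0.34 ± 0.08 with siRNA 1 (adjusted p = 0.00833, edgeR), 0.24 ± 0.08 with siRNA 2 (adjusted p = 0.0606) and 0.29 ± 0.07 for the mean of both (adjusted p = 0.0103, lost with DESeq2 at 0.0573). Without control replicate 3 both calls were lost (adjusted p = 0.0897 and 0.133), and the siRNA 2 value passed without siRNA 2 replicate 2, the library at 27.9 CPM (adjusted p = 0.0354). Another gene on the opposite strand overlaps 14.9% of the exon length of Rb1, and whether the counting used strand is not given in the sources used here. Rbl1, which encodes the related p107, was at 28.5 CPM in the control, with log2 fold changes of 0.15 ± 0.08 and 0.07 ± 0.08 that did not pass the test.

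Ccna2 (ENSMUSG00000027715, chr3:36564865-36572150, minus strand) encodes cyclin A2, which acts with CDK2 in S phase and with CDK1 in G2. It was at 209.9, 223 and 203 CPM in the control. It was at 200.2, 215, 227 and 221 CPM with siRNA 1 and at 236, 241, 223 and 237 CPM with siRNA 2. The siRNA 2 libraries lay above all controls, the closest pair at 223.39 and 223.37 CPM, and siRNA 1 overlapped the control. Ccna2 rose with siRNA 2 by 0.15 ± 0.05 on the log2 scale, just inside the threshold (adjusted p = 0.0479, edgeR), and its value with siRNA 1 was 0.03 ± 0.05. The siRNA 2 call was kept in 2 of 10 alternatives that used all libraries, edgeR's exact test and a stricter filter on reads, and was lost in the others, TMM scaling (adjusted p = 0.121) and DESeq2 (0.18) among them (range 0.0451 to 0.236). It was also lost without control replicate 1 or 3, siRNA 1 replicate 2 or 4, or siRNA 2 replicate 1, 2 or 4 (the adjusted p over all left-out libraries ran from 0.0226 to 0.253). A gene on the opposite strand overlaps 12.5% of its exon length.

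**Figure D3:**
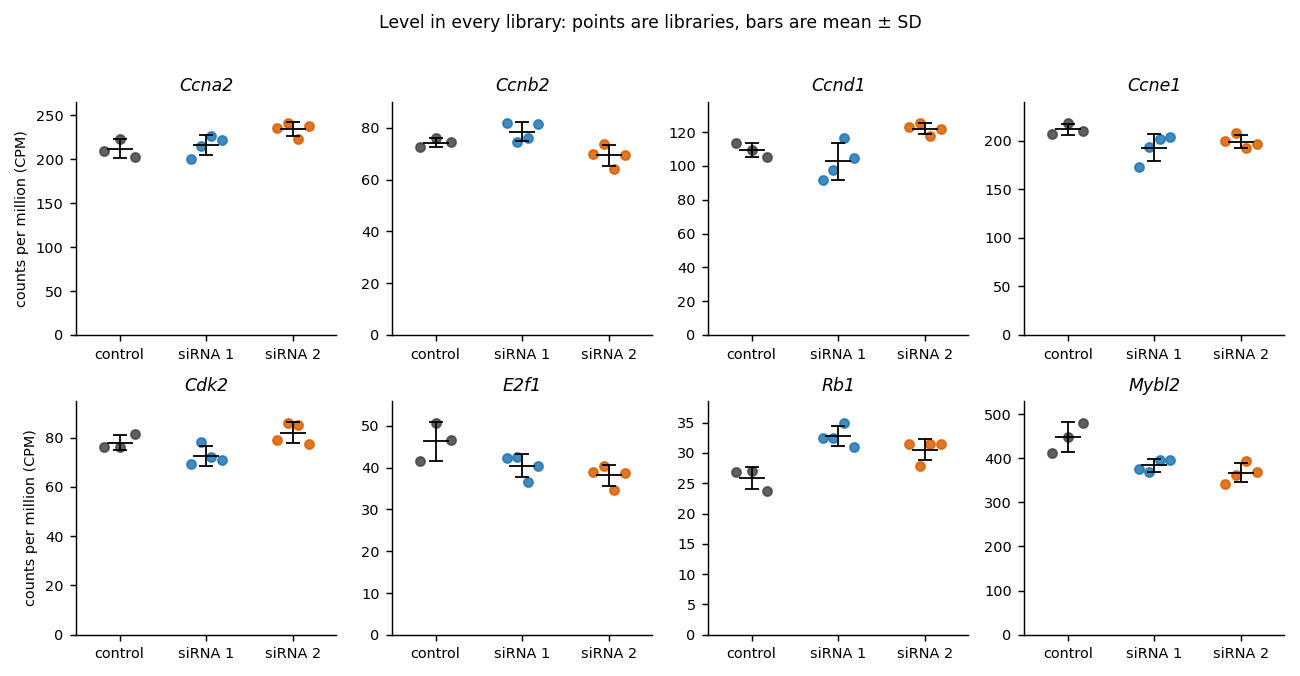
Level of 8 members in every library, in CPM from 0, with points for libraries and bars for the mean ± SD of the control (3 libraries), siRNA 1 (4) and siRNA 2 (4) groups as labelled. Mybl2 lies lower and Rb1 higher in all 8 siRNA libraries than in the controls, and Ccnd1 is higher in siRNA 2 than in siRNA 1.

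The other cyclins and CDKs did not pass the test against control. Ccne1 (ENSMUSG00000002068, chr7:38097984-38107534, minus strand), cyclin E1, was at 207, 218 and 209.7 CPM in the control. It was at 173, 194, 201 and 203 CPM with siRNA 1 and at 199, 208, 192 and 196 CPM with siRNA 2. Its siRNA 1 libraries lay below all controls, and its log2 fold change was -0.13 ± 0.05 (adjusted p = 0.13, edgeR) with siRNA 1 and -0.09 ± 0.05 (adjusted p = 0.28) with siRNA 2. Ccnd3 gave -0.12 ± 0.06 and -0.13 ± 0.06, and of the alternatives run it passed only when control replicate 1 was left out. Ccnb1, cyclin B1, was at 281 CPM in the control, 278 CPM in siRNA 1 and 280.3 CPM in siRNA 2, with intervals of -0.10 to 0.08 and -0.09 to 0.09 on the log2 scale. Its kinase Cdk1 had log2 fold changes of 0.02 ± 0.05 and 0.03 ± 0.05. The CDC25 phosphatases, which activate CDKs, gave -0.11 to 0.17 with siRNA 1 and -0.03 to -0.02 with siRNA 2, and Cdkn1b gave -0.02 ± 0.11 and -0.03 ± 0.11. Ccnb1, Ccnb2 and Ccnd3 each have an annotated pseudogene, and how reads shared with it were counted is uncertain. Genes on the opposite strand overlap 19.7% of the exon length of Cdk4 and 17.4% of that of Ccne2.

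No kinase, checkpoint, kinetochore, spindle, anaphase or chromosome gene among the members passed the test against control with either siRNA. The mitotic kinases and chromosomal passengers (Plk1, Aurka, Aurkb, Incenp and Birc5) ran from -0.0019 to 0.10 on the log2 scale with siRNA 1 and from -0.02 to 0.10 with siRNA 2. The 5 spindle checkpoint genes (Bub1, Bub1b, Bub3, Mad2l1 and Ttk), which delay anaphase until kinetochores are attached, ran from -0.04 to 0.03 and from 0.01 to 0.06. The 4 kinetochore genes (Cenpe, Cenpf, Ndc80 and Nuf2) ran from 0.01 to 0.08 and from 0.02 to 0.08. For all of these genes the approximate 95% interval lay inside a 1.2-fold change with each siRNA. The spindle motors and factors Kif11, Kif20a, Kif23 and Tpx2 ran from -0.04 to 0.05 and from -0.05 to 0.10, with the same outcome. Cdc20, which activates the anaphase-promoting complex, had log2 fold changes of -0.01 ± 0.05 and -0.02 ± 0.05. The largest in its group was Pttg1, securin, with -0.11 ± 0.08 and -0.16 ± 0.08 (adjusted p = 0.18 for siRNA 2, edgeR). Of the alternatives run, Pttg1 passed only with siRNA 2 when replicate number was a block and the length trend was removed. Top2a was at 978, 944 and 979 CPM and the proliferation marker Mki67 at 572, 578 and 578 CPM in control, siRNA 1 and siRNA 2, and neither passed the test. Opposite-strand genes overlap 29.3% of the exon length of Kif20a and 22.8% of that of Ube2c.

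Libraries of the groups did not overlap for 9 of 45 members with siRNA 1, beside 15.5% of all genes, and for 9 of 45 with siRNA 2, beside 19.4%. With siRNA 1 these were Cdc25c, Rb1, Rbl1, Plk1 and Cenpf, which lay higher, and Ccne1, Cdc25a, Mybl2 and Pttg1, which lay lower. With siRNA 2 they were Ccna2, Ccnd1, Ccnd2, Rb1, Foxm1 and Kif11, which lay higher, and E2f1, Mybl2 and Espl1, which lay lower. All 8 siRNA libraries were apart from the controls for 2 members, Rb1 and Mybl2, beside 6.23% of all genes.

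The siRNAs were also compared with each other, and here 3 of 45 members (6.67%) passed the test, beside 7.44% of all genes (higher in siRNA 2 4.49%, lower 2.96%). Libraries did not overlap for 5 members (Ccnd1, Ccnd2, Cdc25a, Ccnb2 and Cenpf), beside 11.8% of all genes. The difference was firmest for Ccnd1 (ENSMUSG00000070348, chr7:144929931-144939925, minus strand), which encodes cyclin D1. It was at 114, 109.5 and 105 CPM in the control. It was at 91.4, 97.8, 116 and 105 CPM with siRNA 1 and at 123, 126, 118 and 122 CPM with siRNA 2. All siRNA 2 libraries lay above all others, and siRNA 1 overlapped the control. Ccnd1 was 1.19-fold higher with siRNA 2 than with siRNA 1 (log2 difference 0.25 ± 0.06, adjusted p = 0.00256, edgeR), which held whichever library was left out, while against control it was -0.09 ± 0.06 with siRNA 1 and 0.16 ± 0.06 with siRNA 2 (adjusted p = 0.0851). Genes on the opposite strand overlap 23.4% of its exon length. Ccnd2 differed by a like amount (0.25 ± 0.10, adjusted p = 0.13) at a level of 13.4 CPM with siRNA 1 and 15.9 CPM with siRNA 2, and did not pass.

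Cdk2 (ENSMUSG00000025358, chr10:128697939-128705031, minus strand), the partner of cyclins E and A, was at 76.1, 76.2 and 81.4 CPM in the control. It was at 69.2, 78.1, 72.1 and 70.8 CPM with siRNA 1 and at 79.1, 86.1, 85.1 and 77.5 CPM with siRNA 2. Its siRNA groups overlapped, and it was higher in siRNA 2 (log2 difference 0.17 ± 0.06, adjusted p = 0.0449, edgeR). Ccnb2 (ENSMUSG00000032218, chr9:70407692-70421547, minus strand), cyclin B2, was at 72.6, 75.9 and 74.4 CPM in the control. It was at 81.9, 74.7, 75.9 and 81.5 CPM with siRNA 1 and at 69.9, 73.8, 64.0 and 69.5 CPM with siRNA 2. The siRNA groups did not overlap, the controls overlapped both, and Ccnb2 was lower in siRNA 2 (log2 difference -0.18 ± 0.06, adjusted p = 0.0428). Both calls lay close to the threshold. With all libraries, Cdk2 was called in 5 of 10 alternatives and lost with DESeq2, with no filter, with only the groups compared, with library sizes without Gm26917 (adjusted p = 0.0526) and with the length trend removed (0.0509), and Ccnb2 was called in 7 of 10 and lost with the first 3 of these. Of single libraries, the Cdk2 call was lost without control replicate 2, siRNA 1 replicate 1, 3 or 4, or siRNA 2 replicate 1, 2 or 3 (adjusted p from 0.0324 to 0.144 over all left-out libraries). The Ccnb2 call was lost without control replicate 2, siRNA 1 replicate 1 or 4, or siRNA 2 replicate 1, 3 or 4 (0.0255 to 0.135). Neither gene passed the test against control with either siRNA.

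A wider list of 122 further cell-cycle genes gave the setting of the members, and 120 of them were tested; the cyclins Ccna1 and Ccnb3 were too low. With siRNA 1, 2 of these rose and 2 fell (3.33% called, beside 4.67% of all genes). With siRNA 2, 10 rose and 1 fell (9.17%, beside 9.72%), a split that became 7 and 3 with TMM scaling. For the mean of both, 4 rose and none fell (3.33%, beside 6.91%), which became 4 and 1 with TMM. These shares lay below the background. The median log2 fold change over the 120 was 0.04 with siRNA 1 and 0.03 with siRNA 2, beside 0.02 and 0.03 over all genes tested. Only Cdkn1a and Zwint passed with each siRNA in the same direction. Cdkn1a, which encodes the CDK inhibitor p21, was at 42.5, 40.6 and 38.9 CPM in the control. It was at 59.1, 61.4, 52.7 and 56.7 CPM with siRNA 1 and at 55.0, 60.6, 51.9 and 48.3 CPM with siRNA 2. All siRNA libraries lay above all controls, and the log2 fold changes were 0.50 ± 0.07 (adjusted p = 1.59e-05, edgeR) and 0.41 ± 0.07 (adjusted p = 0.00019). Zwint, a kinetochore protein, was at 106, 101 and 101 CPM in the control, at 129, 136, 142 and 139.8 CPM with siRNA 1 and at 146, 136, 127 and 132 CPM with siRNA 2. The controls were likewise below all siRNA libraries, with log2 fold changes of 0.41 ± 0.05 (adjusted p = 1.86e-06) and 0.40 ± 0.05 (adjusted p = 1.69e-06). Zwint was the single gene called among the 27 other kinetochore and checkpoint genes of the wider list with each siRNA. Ccng1, cyclin G1, fell with siRNA 1 (log2 fold change -0.32 ± 0.05, adjusted p = 2.39e-05), and its siRNA 2 value of 0.15 ± 0.05 lay just inside the threshold (adjusted p = 0.0461). That siRNA 2 call was kept in 2 of 10 alternatives with all libraries (adjusted p from 0.0435 to 0.188) and was lost with TMM scaling.

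**Figure D4:**
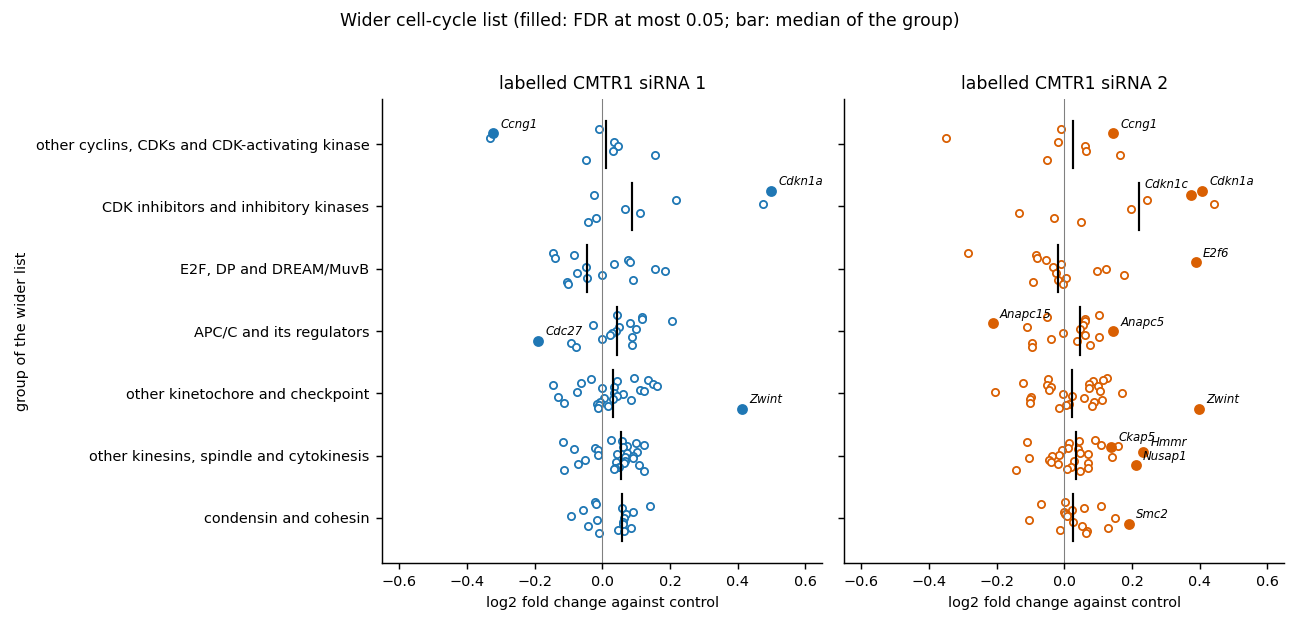
Log2 fold change against control of the 120 further cell-cycle genes tested, by group of the list, for libraries labelled siRNA 1 (left) and siRNA 2 (right). Filled and named points passed an FDR of 0.05 and the vertical bars are group medians; Cdkn1a and Zwint lie to the right with both siRNAs, and Ccng1 lies on opposite sides of 0.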

How the data were processed

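The authors deposited counts, a whole number of reads per Ensembl gene for each of 11 libraries. Per the study's methods, total RNA was depleted of rRNA, made into directional libraries and aligned to GRCm38; the submitters' processing notes name cutadapt, STAR, Picard and featureCounts without versions. The summary lines of 10 of the 11 files have the layout of another counter, HTSeq, and were set aside. Whether strand was used in counting is not given in the sources used here. Symbols, exon lengths and positions came from GENCODE vM21, which held 54809 of the 54838 identifiers.

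Genes above 1 CPM in at least 4 libraries were tested by the quasi-likelihood test of edgeR 4.0.16 (R 4.3.3) in one model of the 3 groups, with libraries scaled by total counts and Benjamini-Hochberg adjustment over all 16073 genes. The 4 contrasts were each siRNA against control, their mean against control, and siRNA 2 against siRNA 1. Intervals are the estimate ± 1.96 SE, a normal approximation that is somewhat narrower than the test implies. For Cdc25c with siRNA 1 the interval was 0.0027 to 0.34, above 0, while the unadjusted p was 0.0528 (edgeR quasi-likelihood test). The procedure was tested on simulated data. Members called in any contrast, with others of lowest unadjusted p up to 8, are given in full; from the wider list, those called in the same direction with each siRNA, and Ccng1, which was chosen after its values were seen. The members and lists were chosen with earlier results of these data known. Alternatives were TMM, DESeq2 1.42.0, edgeR's exact test, other filters and library sizes, a fit of only the groups compared, replicate number as a block, removal of an exon length trend and each library left out. The G1/S and G2/M medians were also taken with Ccna2 and Mybl2 counted as G1/S, and none moved by more than its SD over libraries.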

Additional observations from a re-analysis of the deposited data

Results flagged for a closer look

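In 94 groups of 4 libraries (each member and the means of the G1/S and G2/M genes, in each siRNA group), 5 held a library far from the others, where chance gives about 1 group in 20. In siRNA 2 replicate 2, Cdk6 was at 92.5 CPM (the others at 100.7 to 101.5 CPM), Rb1 at 27.9 CPM (31.4 to 31.5 CPM) and Rbl1 at 28.4 CPM (30.3 to 30.6 CPM), each the lowest of its group. In siRNA 1, Ndc80 was at 60.1 CPM in replicate 4 (53.1 to 53.8 CPM in the others) and Nuf2 at 51.1 CPM in replicate 1 (54.8 to 55.1 CPM).

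The response to the siRNAs differed, by the test of siRNA 2 against siRNA 1, for 3 members: the log2 difference was 0.25 for Ccnd1, 0.17 for Cdk2 and -0.18 for Ccnb2. In the wider list it was 0.47 for Ccng1, 0.40 for Cdkn1c, 0.31 for E2f6 and 0.23 for Cdc27, all higher in siRNA 2, and it was -0.29 for Anapc15, which was lower.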

How the results depend on the processing

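The siRNA 1 calls of Mybl2 and Rb1, the siRNA 2 calls of Mybl2 and E2f1 and the difference of Ccnd1 between the siRNAs held under each alternative other than leaving out a library. Between the siRNAs, 1 member, Ccnd1, was called in place of 3 with DESeq2, with no filter and with only the groups compared. In the wider list, siRNA 2 gave 7 calls with DESeq2, with no filter and with the replicate block plus removal of the length trend, and the mean of both gave 2 with DESeq2. Near 0, signs turned: Ccna2 with siRNA 1 was -0.0006754 with the length trend removed and -0.009656 with the block added. With block and length removal, Ccnd1 was -0.0008366 and the G2/M median -0.01377 for the mean of both, and Cdk2 was 0.00506 there with the block alone. Replicate numbers did not pair the libraries: deviations of the 10 same-numbered pairs correlated at -0.0517 to 0.0547. The block called 2, 2, 3 and 3 members in the 4 contrasts.

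Leaving out each library in turn, members called ran from 0 to 3 (siRNA 1), 1 to 3 (siRNA 2), 1 to 4 (mean of both) and 1 to 3 (between siRNAs), and genes of the wider list from 3 to 4, 5 to 13, 2 to 7 and 5 to 10. The G1/S median ran from -0.09606 to -0.04341 with siRNA 1. Values that changed sign ran from -0.005372 to 0.06559 (Ccna2, siRNA 1), and for the mean of both from -0.02699 to 0.007361 (Ccnb2), -0.001185 to 0.05983 (Ccnd1) and -0.03193 to 0.0197 (Cdk2), and between the siRNAs from -0.003882 to 0.06895 (Ccne1). Where a group lost a library, the others supplied the spread. The SE of a log2 fold change reached 0.11 for Ccnd2, the member with the fewest reads (92 in 1 library), so that a change of the size of that of Mybl2 would have missed the threshold there. The cause of these changes was not tested.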
